A study of Gallus gallus with 4 samples.

Results

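F-box proteins are the interchangeable parts of a large class of ubiquitin ligases, and their genes were compared between the breast muscle of a broiler and that of a native chicken. The genes were chosen by name: every row of the deposited expression table whose single gene name starts with FBXO, FBXL or FBXW, or equals SKP1 or SKP2. This gave 49 of 18973 rows, with 48 gene symbols, since FBXO42 had 2 rows at the same locus. The authors' deposited table marked 41 of the 49 as tested, of 11626 rows tested in all. The rows comprised 30 FBXO, 12 FBXL and 6 FBXW rows and SKP2. No row carried the name SKP1.

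The 2 groups were Ross 708, a commercial broiler, and Isfahani, a native Iranian chicken, both sampled from the pectoralis (breast) muscle at day 28 after hatching. Each group had 2 libraries, and each library was made from RNA of 3 samples of that breed mixed in equal amounts. No treatment or genetic modification is given for either group. The table holds 1 FPKM value (fragments scaled to transcript length and library size) per breed, so the values below have no SD and no n, and sequencing depth is unknown. The table names its columns Commercial and Native, and Commercial was read as Ross 708 because no other group remained.

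In a ligase of the SCF type, the scaffold CUL1 holds the RING protein RBX1, which brings in a ubiquitin-loaded enzyme, and SKP1, which holds an F-box protein. The F-box protein binds the substrate, so it decides what is marked for the proteasome. FBXL proteins bind substrates through leucine-rich repeats, FBXW proteins through WD repeats, and FBXO proteins through other domains. In mouse muscle, atrogin-1 (FBXO32) is a classical marker of wasting, is transcribed under FOXO factors when insulin signalling is low, and targets MYOD1 and the translation factor subunit EIF3F.

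FBXO32, FBXO30 and FBXL21 fell in Ross 708, and no F-box or SKP row rose. These 3 were the calls at a q-value of 0.05 or less in the authors' deposited table, 7.32% of the 41 tested rows, against 5.21% of all tested rows called in either direction, 2.14% called lower and 3.07% called higher in Ross 708. The other 38 rows were not called. At an unadjusted p of 0.05 or less in the authors' deposited table (Cufflinks package, per the series' design text), 8 rows were lower in Ross 708 and 0 were higher. Those 8 were 19.5% of the 41, where 17.0% of all tested rows passed in either direction, 7.96% with the lower and 9.06% with the higher value in Ross 708. In tissue RNA, fewer cells of a type and less RNA per cell cannot be told apart. Whether the pools were drawn from different flocks is not given in the labels, and the p-values measure at most the spread between these pools, which may be technical.

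Ratios below set Ross 708 over Isfahani on the log2 scale after 1 FPKM was added to each value. Negative ratios are lower in Ross 708, and the change of low genes is understated. The value was lower in Ross 708 in 32 of 41 rows (78.0%) and higher in 9. Over all 11626 tested rows it was lower in 53.5%. The median ratio was -0.22 over the 41 rows, with an interquartile range from -0.43 to -0.05, against -0.03 over all tested rows. Summed FPKM of the 41 rows came to 509 in Ross 708 and 657 in Isfahani. Over all tested rows the sum was also lower in Ross 708, at 533774, against 552431 in Isfahani. Such sums weigh the most abundant rows most. Rescaling both breeds to the same sum of all rows moved the median ratio of the 41 rows to -0.34. That sum includes 39 rows without a valid estimate (status HIDATA), which add 72193 FPKM in Ross 708 and 0 in Isfahani. Rescaling to the sum of tested rows alone moved the median the other way, to -0.18, and centring on the median of rows that reach 1 FPKM in each breed added 0.05 to each ratio.

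**Figure D1:**
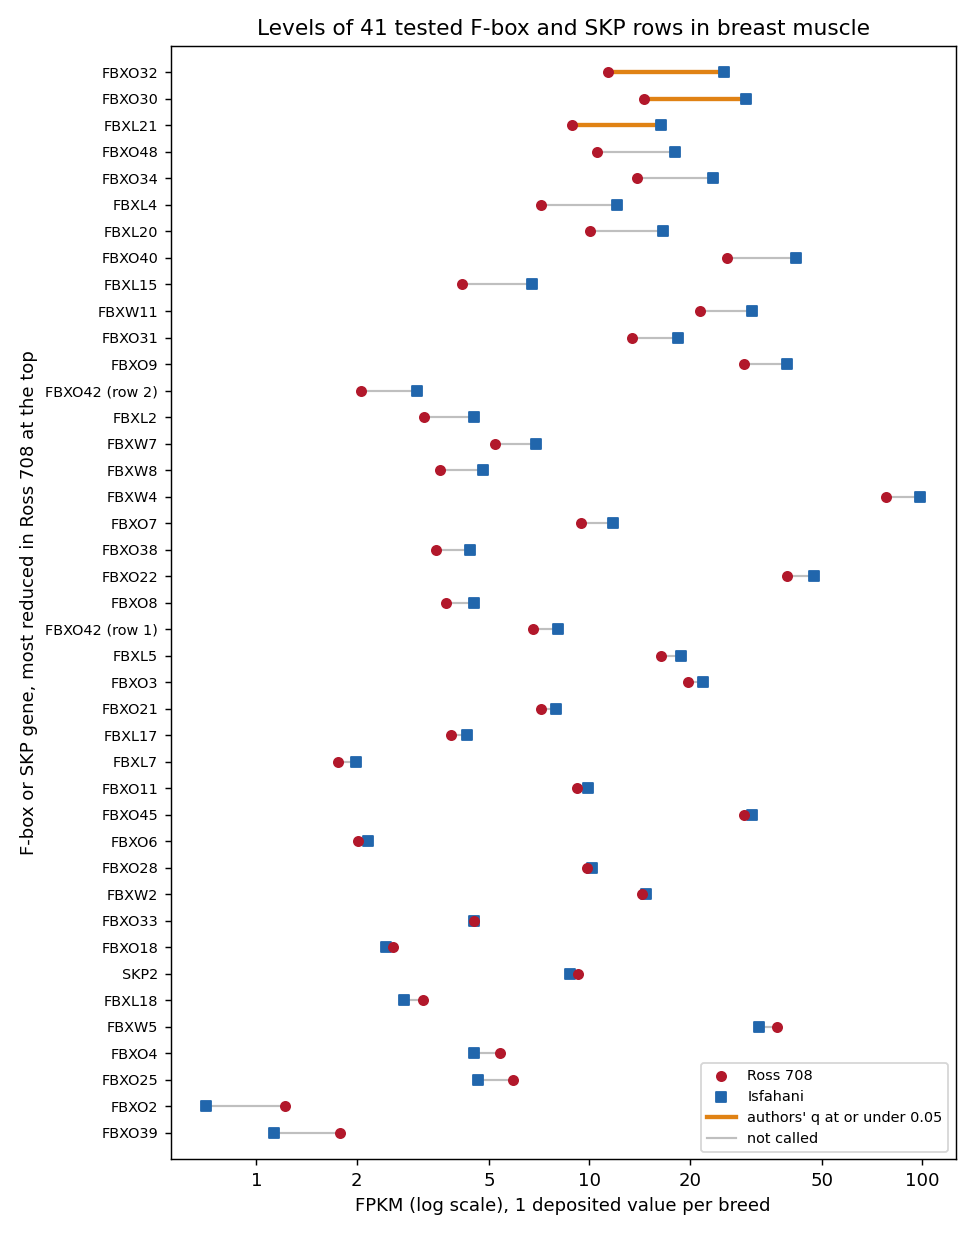
FPKM (log scale) of each of the 41 tested F-box and SKP rows in Ross 708 (circles) and Isfahani (squares), 1 deposited value per breed, ordered by log2 ratio; orange lines join rows called at a q-value of 0.05 or less. The circle lies left of the square in 32 rows, with the widest called gap at FBXO32 (11.4 FPKM in Ross 708 and 25.4 FPKM in Isfahani); the FBXO42 row marked 2 is the lower one, at 2.06 FPKM in Ross 708 and 3.04 FPKM in Isfahani.

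Among the F-box genes linked to muscle wasting, FBXO32 and FBXO30 fell in Ross 708. FBXO32 (chromosome 2, 137644049 to 137668779, galGal5, as deposited) had 11.4 FPKM in Ross 708 and 25.4 FPKM in Isfahani, so the Ross 708 level was 44.6% of the Isfahani level. Its log2 ratio of -1.10 was the lowest of the 41, with q = 0.00245 in the authors' deposited table. FBXO30 (chromosome 3, 45824454 to 45841890), known as MUSA1 in mouse, where BMP signalling restrains it, had 14.5 FPKM in Ross 708 and 29.5 FPKM in Isfahani. That is a log2 ratio of -0.97 and 49.3% of the Isfahani level, with q = 0.0106 in the authors' deposited table. These atrophy-linked ligases therefore stood next to each other as the most reduced rows, and no other row of the table overlaps either locus.

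The other wasting-linked members, and FBXO25, a relative of atrogin-1, had ratios smaller in size, and none was called. FBXO40, a striated muscle gene whose product targets the insulin receptor substrate IRS1 in mouse, had 25.9 FPKM in Ross 708 and 41.7 FPKM in Isfahani (log2 ratio -0.67). Its unadjusted p was 0.0125 and its q-value 0.137 in the authors' deposited table. FBXO31, which targets cyclin D1 in human cells and is induced in wasting mouse muscle, had 13.5 FPKM in Ross 708 and 18.5 FPKM in Isfahani (log2 ratio -0.43, q = 0.389 in the authors' deposited table). FBXO21, called SMART in mouse muscle, was close to level, with 7.17 FPKM in Ross 708 and 7.94 FPKM in Isfahani (log2 ratio -0.13, q = 0.887 in the authors' deposited table). FBXO25, the nearest relative of atrogin-1 in the family, had the opposite sign, with 5.92 FPKM in Ross 708 and 4.63 FPKM in Isfahani. Its log2 ratio was 0.30 with q = 0.695 in the authors' deposited table, and its locus overlaps TDRP.

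FBXL21 (chromosome 13, 14538981 to 14552155) was the third called row, with 8.87 FPKM in Ross 708 and 16.4 FPKM in Isfahani. Its product binds the cryptochromes of the circadian clock in mouse. The log2 ratio was -0.82, which is 54.1% of the Isfahani level, and q was 0.0363 in the authors' deposited table. CRY1, a cryptochrome, had 34.3 FPKM in Ross 708 and 53.5 FPKM in Isfahani (q = 0.165 in the authors' deposited table, not called). CRY2 had 18.7 FPKM in Ross 708 and 20.1 FPKM in Isfahani (q = 0.925 in the authors' deposited table). The labels give no time of day for tissue collection.

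Next to the 3 calls stood 4 further rows that passed an unadjusted p of 0.05 but not the adjustment, besides FBXO40. FBXO34, on chromosome 5, had 13.9 FPKM in Ross 708 and 23.4 FPKM in Isfahani (log2 ratio -0.72), and its q-value of 0.0776 in the authors' deposited table was the nearest to the threshold from outside. FBXO48, whose product acts on AMPK in human cells, had 10.5 FPKM in Ross 708 and 18.0 FPKM in Isfahani (log2 ratio -0.73, q = 0.137 in the authors' deposited table). FBXL20, whose product controls a synaptic release protein in mouse, had 10.04 FPKM in Ross 708 and 16.7 FPKM in Isfahani (log2 ratio -0.68, q = 0.12 in the authors' deposited table). FBXL4, a mitochondrial protein that restrains mitophagy in human cells by acting on BNIP3 and BNIP3L, had 7.14 FPKM in Ross 708 and 12.1 FPKM in Isfahani (log2 ratio -0.69, q = 0.257 in the authors' deposited table). Across all 8 rows at this level, called ones included, the Ross 708 value was between 44.6% and 62.1% of the Isfahani value.

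The most abundant F-box transcripts per length, FBXW4 and FBXO22, were not called. FBXW4, a gene of limb development in mouse, ranked highest in both breeds, with 77.7 FPKM in Ross 708 and 98.2 FPKM in Isfahani (log2 ratio -0.33, q = 0.585 in the authors' deposited table). FBXO22, whose product targets the histone demethylase KDM4A in human cells, ranked next in both, with 39.1 FPKM in Ross 708 and 47.3 FPKM in Isfahani (q = 0.746 in the authors' deposited table). FBXO9, which targets mTOR pathway adaptors in human cells, had 29.1 FPKM in Ross 708 and 39.3 FPKM in Isfahani (log2 ratio -0.42, q = 0.427 in the authors' deposited table). FBXO45, a regulator of synapse formation in mouse, was almost level, with 29.2 FPKM in Ross 708 and 30.7 FPKM in Isfahani (q = 0.949 in the authors' deposited table). FBXO3 was likewise near level at 19.8 FPKM in Ross 708 and 21.9 FPKM in Isfahani (q = 0.884 in the authors' deposited table). FBXO32 held rank 14 of 41 by FPKM in Ross 708 and rank 9 in Isfahani, and FBXO40 held rank 6 in Ross 708 and rank 3 in Isfahani.

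FBXW11, FBXW7, SKP2, FBXO4 and FBXL5 were not called. FBXW11, which with its relative BTRC marks beta-catenin and the NF-kappaB inhibitor NFKBIA for breakdown, had 21.5 FPKM in Ross 708 and 30.8 FPKM in Isfahani (log2 ratio -0.50). Its unadjusted p was 0.0552 and its q-value 0.31 in the authors' deposited table. FBXW7, which marks cyclin E, MYC, JUN and NOTCH1, had 5.21 FPKM in Ross 708 and 6.93 FPKM in Isfahani (log2 ratio -0.35, q = 0.519 in the authors' deposited table). SKP2, which marks the cell cycle inhibitor CDKN1B, had 9.22 FPKM in Ross 708 and 8.76 FPKM in Isfahani (log2 ratio 0.07, q = 0.971 in the authors' deposited table). The SKP2 ratio was 0.11 with a common sum of tested rows but turned to -0.05 with a common sum of all rows, and its locus overlaps LMBRD2 and NADK2. FBXO4, another reported cyclin D1 ligase, had 5.41 FPKM in Ross 708 and 4.49 FPKM in Isfahani (log2 ratio 0.22, q = 0.735 in the authors' deposited table). FBXL5, the iron-sensing subunit that marks IREB2, had 16.4 FPKM in Ross 708 and 18.9 FPKM in Isfahani (log2 ratio -0.19, q = 0.86 in the authors' deposited table), and 2 other rows overlap its locus.

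The 9 rows with the higher value in Ross 708 had log2 ratios of at most 0.39 with 1 FPKM added. FBXO39 had the highest on that scale, with 1.78 FPKM in Ross 708 and 1.13 FPKM in Isfahani (q = 0.653 in the authors' deposited table), and it overlaps FAM64A and TEKT1. FBXO2, which recognises sugar chains on misfolded glycoproteins, had 1.22 FPKM in Ross 708 and 0.708 FPKM in Isfahani (log2 ratio 0.38, q = 0.578 in the authors' deposited table), the lowest tested level of the family. Without the added 1 FPKM, FBXO2 had the highest log2 ratio of the tested rows, 0.78, and FBXO39 had 0.66. FBXW5, a CUL4 ligase subunit that acts on TSC2 in human cells, was the only abundant row of this kind, with 36.7 FPKM in Ross 708 and 32.3 FPKM in Isfahani (log2 ratio 0.18, q = 0.963 in the authors' deposited table). Its locus on chromosome 17 also holds C8G, at 121 FPKM in Ross 708 and 519 FPKM in Isfahani, so the FBXW5 value is uncertain. The remaining rows of this kind were FBXL18 (log2 ratio 0.14), FBXO18 (0.05) and FBXO33 (0.003), beside SKP2, FBXO4 and FBXO25.

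By substrate-binding class, the value was lower in Ross 708 in 8 of 9 FBXL rows, 19 of 25 FBXO rows and 5 of 6 FBXW rows. The median log2 ratios were -0.40 for FBXL, -0.22 for FBXO and -0.34 for FBXW rows, with 1, 2 and 0 calls. Over all tested rows 53.5% were lower and the median was -0.03. Of all tested rows, 5.21% were called in either direction and 2.14% were called lower. The classes hold few rows, and differences between them were not tested. The uncalled rows not yet described ran from FBXL15 (4.15 FPKM in Ross 708 and 6.70 FPKM in Isfahani, log2 ratio -0.58), which overlaps CUEDC2, to FBXW2 (14.4 FPKM in Ross 708 and 14.8 FPKM in Isfahani, log2 ratio -0.04). They included FBXO7, a Parkinson disease gene in human, at 9.45 FPKM in Ross 708 and 11.8 FPKM in Isfahani. FBXO11, which targets BCL6 in human cells, was close to level at 9.20 FPKM in Ross 708 and 9.93 FPKM in Isfahani. FBXW8, which pairs with CUL7, had 3.55 FPKM in Ross 708 and 4.78 FPKM in Isfahani (log2 ratio -0.34). The others in this span were FBXL2 (-0.40), FBXO38 (-0.27), FBXO8 (-0.22), FBXL17 (-0.13), FBXL7 (-0.12), FBXO6 (-0.07), FBXO28 (-0.05) and the 2 FBXO42 rows (-0.40 and -0.22), each given as a log2 ratio. The 8 untested rows (FBXL12, FBXL13, FBXL16, FBXO15, FBXO16, FBXO41, FBXO43 and FBXO47) reached at most 0.114 FPKM in either breed, and 3 of them, FBXL12, FBXL16 and FBXO41, were listed at 0 in both.

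Ratios differed with abundance. With a mean of at least 10 FPKM over the breeds, a split chosen after the values were seen, 18 of 19 rows (94.7%) were lower in Ross 708, with a median log2 ratio of -0.42. All tested rows of the table at that level were lower in 64.2% of 4716 cases, with a median of -0.14. Under 10 FPKM, 14 of 22 rows (63.6%) were lower, with a median of -0.12, against 46.2% of 6910 rows and a median of 0.04 in the whole table. All 3 calls, and 7 of the 8 rows at an unadjusted p of 0.05 or less, were in the more abundant set. In the whole table, 152 rows were called higher and 167 lower of the 4716 at that level. Of the 6910 rows under it, 205 were called higher and 82 lower. An unadjusted p of 0.05 or less in the authors' deposited table was reached by 949 of the 4716 and 1030 of the 6910. Spearman's rho between mean FPKM and log2 ratio was -0.44 over the 41 rows and -0.19 over all tested rows, given as a description of points that share the same libraries.

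**Figure D2:**
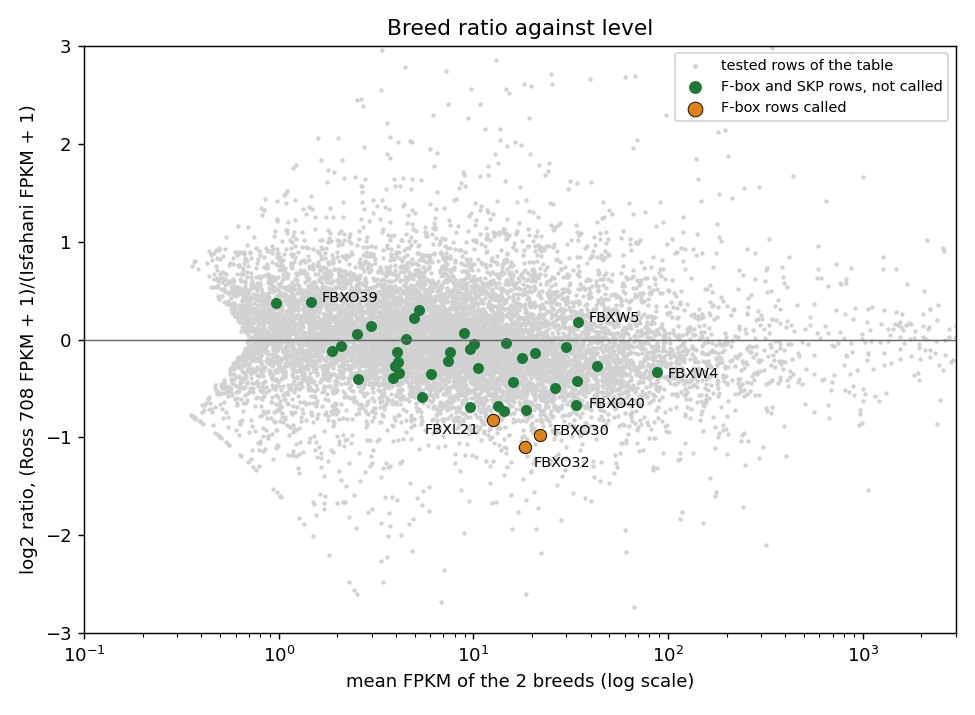
Log2 ratio of Ross 708 over Isfahani (1 FPKM added to each) against the mean FPKM of both breeds (log scale) for tested rows of the table (grey), uncalled F-box and SKP rows (green) and called F-box rows (orange). Of the 19 members with a mean of at least 10 FPKM, 18 lie below 0, all but FBXW5; ratios beyond 3 in size and means outside the axis are not drawn.

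The rows lay on 17 chromosomes and 1 unplaced scaffold, with 8 rows on chromosome 3, the most on any. Some members lie close together. FBXO21 and FBXW8 lie 4579 bases apart on chromosome 15, with log2 ratios of -0.13 and -0.34. FBXO2 and FBXO6, both readers of glycoproteins, lie 50 bases apart on chromosome 21, with log2 ratios of 0.38 and -0.07. In all, 16 of the 41 tested rows overlap another row, as do 3660 of all 11626 tested rows. None of the 8 rows at an unadjusted p of 0.05 or less does. Among the 25 tested rows without overlap, 21 were lower in Ross 708, and their median log2 ratio was -0.34. Over all tested rows, with or without overlap, 53.5% were lower, with a median of -0.03. The same values were not tabulated for all rows without overlap, so whether these counts are usual for the table is unknown.

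Several rows outside the naming rule hold the same kind of gene. The row named CTD-2410N18.5, which RefSeq (GRCg7b, used for names alone) pairs with SKP1, had 120 FPKM in Ross 708 and 147 FPKM in Isfahani (log2 ratio -0.29, q = 0.665 in the authors' deposited table). A row shared by FBXL22, an F-box gene of the sarcomere in mouse heart, and USP3 had 23.3 FPKM in Ross 708 and 10.2 FPKM in Isfahani, a log2 ratio of 1.11 with an unadjusted p of 0.0234 and q = 0.194 in the authors' deposited table. It cannot be assigned to either gene. A row shared by FBXO5 and MTRF1L was level, with 5.29 FPKM in Ross 708 and 5.38 FPKM in Isfahani. Of F-box proteins under other symbols, 4 were tested and none called, either in the authors' adjusted test or at an unadjusted p of 0.05: BTRC, CCNF, KDM2B and LMO7, with log2 ratios from -0.27 to 0.24.

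Among the genes of the SCF core and cullin regulators, DCUN1D5, a cullin regulator, rose in Ross 708 and no other gene was called. The list of the SCF core and cullin regulators included neddylation enzymes, the COP9 signalosome and ubiquitin-conjugating enzymes such as UBE2D3 and UBE2G1. Of its 31 tested genes, 27 had the lower value in Ross 708, 1 rose, none fell and 30 were not called. That is 3.23% called, against 5.21% of all tested rows. The list was drawn up with earlier results of these data known. Over all tested rows the lower value was in Ross 708 in 53.5%, and in 64.2% of those with a mean of at least 10 FPKM. The median log2 ratio of the list was -0.33. At an unadjusted p of 0.05 or less in the authors' deposited table, 1 was higher and 4 were lower (COPS8, DCUN1D2, UBE2D3 and UBE2G1), where 9.06% of all tested rows passed with the higher and 7.96% with the lower value in Ross 708. CUL1, the scaffold, had 18.03 FPKM in Ross 708 and 21.8 FPKM in Isfahani (q = 0.77 in the authors' deposited table). RBX1, the RING subunit, had 277 FPKM in Ross 708 and 230.2 FPKM in Isfahani (q = 0.698 in the authors' deposited table). The gene that rose was DCUN1D5, one of the proteins that help attach NEDD8 to cullins, with 321 FPKM in Ross 708 and 71.9 FPKM in Isfahani, a log2 ratio of 2.15 and q = 0.00245 in the authors' deposited table. Its relatives DCUN1D1, DCUN1D2, DCUN1D3 and DCUN1D4 were not called, with log2 ratios from -0.49 to -0.07.

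Genes of the wasting programme outside the F-box family included 7 calls, 6 of them lower in Ross 708. Of 30 tested, 6 fell, 1 rose and 23 were not called, which is 23.3% called against the 5.21% of all tested rows. The median log2 ratio was -0.11. The value was lower in Ross 708 in 17 and higher in 13, against 53.5% lower over all tested rows. At an unadjusted p of 0.05 or less in the authors' deposited table, 7 were lower and 3 higher. Over all tested rows 7.96% passed with the lower and 9.06% with the higher value. Among the 3 higher were the uncalled GADD45A (70.2 FPKM in Ross 708, 47.9 FPKM in Isfahani) and TRIM55 (40.9 FPKM in Ross 708, 28.3 FPKM in Isfahani). Some genes of the list were known from earlier results of these data when the list was drawn up, so its count is not independent evidence. FOXO3, a transcription factor that activates atrogin-1 in mouse muscle, had 11.6 FPKM in Ross 708 and 24.03 FPKM in Isfahani (log2 ratio -0.99, q = 0.0184 in the authors' deposited table). FOXO1, its relative, was level, with 4.33 FPKM in Ross 708 and 4.31 FPKM in Isfahani (q = 0.995 in the authors' deposited table). KLF15, a glucocorticoid-induced factor that raises atrogin-1 in rodent muscle, had 13.3 FPKM in Ross 708 and 26.1 FPKM in Isfahani (log2 ratio -0.93, q = 0.0174 in the authors' deposited table). TRIM63, the RING ligase usually measured beside atrogin-1, had 125 FPKM in Ross 708 and 217 FPKM in Isfahani (q = 0.0828 in the authors' deposited table, not called).

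The other called genes of that list were WWP1 (log2 ratio -1.32), ULK1 (-1.07), SQSTM1 (-0.99) and BNIP3 (-0.83), lower in Ross 708, and MSTN (1.30), higher in Ross 708. WWP1, a HECT-type ligase, had 49.7 FPKM in Ross 708 and 125 FPKM in Isfahani, and it overlaps another row. BNIP3, a mitophagy receptor, had 66.4 FPKM in Ross 708 and 119 FPKM in Isfahani (q = 0.0369 in the authors' deposited table). MSTN, which encodes the growth inhibitor myostatin, had 108 FPKM in Ross 708 and 43.3 FPKM in Isfahani.

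**Figure D3:**
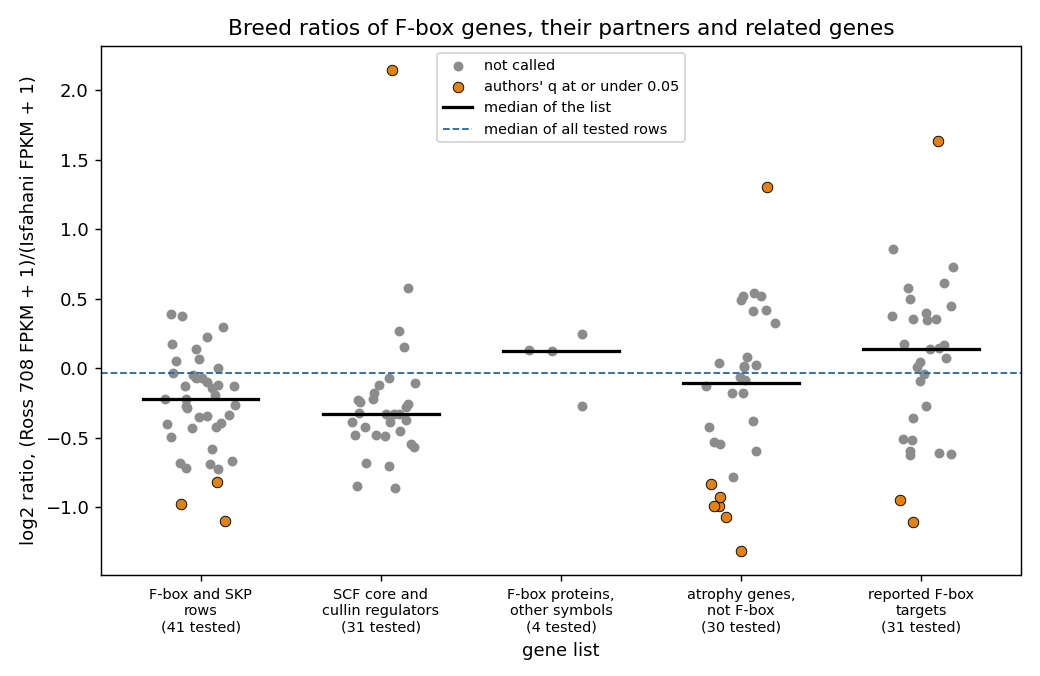
Log2 ratio of Ross 708 over Isfahani (1 FPKM added to each) of each tested row in 5 gene lists; orange points were called at a q-value of 0.05 or less in the authors' deposited table, black bars are list medians and the dashed line is the median of all tested rows (-0.03). F-box and SKP rows have 3 orange points, all below 0, while the SCF core and cullin regulators have 1, DCUN1D5, at 2.15.

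Transcripts of proteins reported as F-box targets had no common direction. Of 31 tested rows, 19 had the higher and 12 the lower value in Ross 708, with a median log2 ratio of 0.13. Over all tested rows the value was lower in 53.5%. Among the 31 rows 1 rose, 2 fell and 28 were not called, which is 9.68% called, against 5.21% of all tested rows. This list was drawn up with earlier results of these data known, so its count is not independent evidence. At an unadjusted p of 0.05 or less in the authors' deposited table, 5 were higher and 7 lower. Over all tested rows 9.06% passed with the higher and 7.96% with the lower value. The rows hold 30 genes, since PDCD4 had 2 rows at the same locus, with log2 ratios of -0.60 and 0.17. MYOD1, the myogenic factor that atrogin-1 targets in mouse, had 110.4 FPKM in Ross 708 and 238 FPKM in Isfahani (log2 ratio -1.10, q = 0.0132 in the authors' deposited table). It is counted among the muscle markers below as well. CCNE1, the FBXW7 target cyclin E1, had 3.91 FPKM in Ross 708 and 8.48 FPKM in Isfahani (log2 ratio -0.95, q = 0.0369 in the authors' deposited table). JUN, also an FBXW7 target and an immediate early gene, rose to 216 FPKM in Ross 708, against 68.7 FPKM in Isfahani, and overlaps another row; it is counted among the handling markers below as well. IRS1 had 9.67 FPKM in Ross 708 and 15.2 FPKM in Isfahani (q = 0.184 in the authors' deposited table, not called). These are transcript levels and carry no information on protein breakdown.

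The authors' deposited enrichment sheets listed the 3 called genes and no other member. They appeared in 42 of 254 terms of the sheet named for genes up in the native breed, FBXO32 in 40 terms, FBXL21 in 17 and FBXO30 in 14, and in none of the 1095 and 29 terms of the other 2 sheets. Those 2 are named as down in Ross, yet all 271 and 85 of their genes with a called row had the higher value in Ross 708 in the authors' deposited table, and all 164 such genes of the first sheet had the lower value. These numbers equal the gene totals of the sheets. The listing of the 3 called members alone is therefore not independent of the calls. All 3 called members were among the 18 genes of the term protein ubiquitination, whose fold enrichment was 2.32 with p = 0.0019 and a Benjamini-adjusted p of 0.209 in the authors' deposited table. Of the 42 terms, 8 had there an adjusted p of 0.05 or less, all of them broad, such as protein modification process (67 genes, adjusted p = 0.00367). FBXO32 alone represented the family in muscle adaptation (6 genes, adjusted p = 0.223) and in response to glucocorticoid (7 genes, adjusted p = 0.467) in the authors' deposited table.

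Markers of other cell types also moved between the breeds. For comparison, 3.07% of all tested rows were called higher and 2.14% lower in Ross 708. Summed FPKM of 6 adipocyte markers was 412 in Ross 708 and 111 in Isfahani, with 4 called higher. For 6 fibroblast and matrix markers it was 2883 in Ross 708 and 1754 in Isfahani, with 2 called higher, and for 6 leukocyte markers 2833 in Ross 708 and 2195 in Isfahani, with 1 called higher. CD74 made up most of the leukocyte sum, was not called and overlaps 14 other rows; the other 5 leukocyte markers summed to 99.4 FPKM in Ross 708 and 57.1 FPKM in Isfahani. Smooth muscle (3 tested, 1 called higher), endothelial (4 tested, 0 called) and nerve markers (2 tested, 0 called) had summed levels of 40.3, 39.8 and 19.2 FPKM in Ross 708 and 24.0, 29.3 and 22.3 FPKM in Isfahani. HBAA and HBAD, the erythroid markers with a row, were listed at 0 in both breeds and untested. Of 7 tested rows of handling and stress markers, 6 were called higher in Ross 708, with summed FPKM of 1597 in Ross 708 and 514 in Isfahani. These rows hold 6 genes, since HSPA2 had 2 rows at the same locus. The name of this list is a label for its genes, and the cause of their higher values was not tested. The called HSPA2 row had 440 FPKM in Ross 708 and 149 FPKM in Isfahani. The uncalled one had 314 FPKM in Ross 708 and 114 FPKM in Isfahani. The muscle markers DES (1917 FPKM in Ross 708 and 1971 FPKM in Isfahani) and CACNA1S (94.4 FPKM in Ross 708 and 96.5 FPKM in Isfahani) were high and level in both breeds. The DES locus overlaps 2 other rows. Of 6 tested muscle markers, MYH1A and MYH1D rose and MYOD1 fell. PVALB had the higher value in Ross 708 (109 FPKM, against 86.0 FPKM in Isfahani) and was not called. ACTA1 and MYL1 were listed at 0 in both breeds, and TNNC2, TNNI2 and TNNT3 at 0 in Isfahani, all 5 without a valid estimate. The part of these marker differences in the F-box results was not tested.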

How the data were processed

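RNA was sequenced from 4 libraries, 2 per breed, each a pool of 3 RNA samples. Per the submitters' processing notes, the authors worked on galGal5 with Cufflinks 2.2.1, HISAT2, Trimmomatic and FastQC 0.11.5; no annotation, library scaling or dispersion model is named there. The table has Cuffdiff's columns, per the file headers, and holds the deposited FPKM per breed, their log2 ratio, a test score (not used), p-values and q-values. The enrichment sheets hold the authors' gene numbers, percent of list, fold enrichment and adjusted p-values, per the file headers.

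A row was called at a deposited q-value of 0.05 or less. Benjamini-Hochberg adjustment of the deposited p-values over the 11626 tested rows gave the deposited q-values to within 5.22e-07. With 1 value per breed, limma could not be fitted, and the authors' q-values applied, as the design set out for that case. The smallest deposited p, 5e-05, was shared by 237 tested rows. The ratio used a pseudocount of 1 FPKM; loci that share a base counted as overlapping. Median ratios were tabulated with Python 3.11.15 and pandas 2.3.3, and the functions were tested on simulated data. No depth, interval or replicate spread could be had from these values.

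Members and gene lists were chosen with earlier results of these data known. Values are given for every called member, every member at an unadjusted p of 0.05 or less, the 10 most abundant, the 5 highest and 5 lowest ratios, members known in muscle, and, beyond that rule, the remaining tested rows.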

Additional observations from a re-analysis of the deposited data

How the results depend on the processing

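No paired analysis was possible because the table holds 1 value per breed and no value per library, so no replicate could be left out or used as a block. Of the 3 calls, 1 (FBXO32) remained at a q-value threshold of 0.01, 1 (FBXO32) when a log2 ratio of at least 1 in size was also required (2, FBXO30 among them, with that ratio taken without a pseudocount, added after seeing the data), 4 were made at a threshold of 0.1, and 8 rows passed an unadjusted p of 0.05, an alternative chosen after seeing the data; 0 rows were called higher in Ross 708 under any of these. The median log2 ratio of -0.22 ran from -0.34 (rescaled to the sum of all rows) to -0.13 (untested rows included), and it was also -0.34 without overlapping rows. Leaving out overlapping rows, which leaves fewer rows, gave 21 lower and 4 higher in Ross 708, an alternative likewise added after seeing the data. Rescaling to the sum of all rows, which HIDATA rows raise in Ross 708 alone, gave 35 lower and 6 higher; the sum of tested rows, also added later, gave 31 and 10 with a median of -0.18, and centring 30 and 11. Of the 24 rows covered by the rule for giving values, SKP2 alone changed sign, to -0.05, with a common sum of all rows. Tested rows outside those 24 also changed sign, as the counts of lower and higher rows show. Depth is unknown, so rows near 1 FPKM, such as FBXO2 and FBXO39, carry an unknown counting error. Without a pseudocount the log2 ratios of FBXO2 and FBXO39 moved to 0.78 and 0.66.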
